A study of Homo sapiens with 6 samples.

Results

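The mRNA levels of 9 genes of the complement system and the acute-phase response were followed in T24 cells with and without added RNF112. The genes were chosen by name, and all 9 of them were found by their symbols among the 23152 genes of the count table. They are the complement components C3, CFB, C1R and C1S, the complement inhibitors CD55 and CD59, and the acute-phase genes SAA1, SAA2 and LCN2. T24 cells are a long-used line from a human bladder carcinoma, and RNF112 is a RING finger E3 ubiquitin ligase. Messenger RNA was sequenced from 3 samples that received the vector (vector) and 3 samples that overexpressed RNF112 (oeRNF112), to look for processes downstream of RNF112. All 6 samples were grown in RPMI medium with serum and antibiotics. The labels name a vector and an overexpression treatment, the protocol attached to them describes siRNA transfection, and the sources used here do not say whether the sequenced cells carried the construct transiently or stably. Nothing states that the 3 samples of a group were separate cultures. The p-values set each group difference against the spread between these samples, which may be technical.

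Complement is a cascade of plasma and cell-surface proteins that marks targets for removal and can open pores in membranes. It starts through C1 (C1R and C1S are the proteases of this complex), through lectins, or through the alternative pathway, in which factor B (CFB) joins the fragment of C3 already deposited on a surface. Host cells carry inhibitors on their membrane: CD55 speeds the decay of the enzymes that cleave C3, and CD59 blocks the last step of the pore. Acute-phase proteins are made mainly by the liver during inflammation, and epithelial cells make some of them locally. SAA1 and SAA2 encode serum amyloid A apolipoproteins, and LCN2 encodes lipocalin 2, which withholds iron from bacteria by binding their siderophores.

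The total counts were between 40029547 and 41259569 reads per sample. Counts were scaled to the library size (CPM) with edgeR's TMM factors and tested with its quasi-likelihood test, and an adjusted p (Benjamini-Hochberg over all 14467 genes tested) under 0.05 was taken as a difference. RNF112 had 19 to 27 counts in the vector samples and 29753 to 36963 in the oeRNF112 samples, which could include reads from the construct. Keratin 7 and 18 mRNAs, markers of bladder epithelial tumor cells, were abundant in every sample, while the defining liver markers were at or near 0 (ALB had at most 2 counts and AHSG at most 1). The 8 hepatocyte markers in the table had a summed CPM of 0.104 to 0.202 in vector and of 0.0724 to 0.354 in oeRNF112. Of the bladder epithelial and carcinoma markers, 10 were in the table, with a summed CPM of 7529 to 9138 in vector and of 5987 to 7427 in oeRNF112, and of 7 tested, EPCAM was higher and KRT7 and KRT18 were lower. Much of this sum came from the mesenchymal gene VIM, with a CPM of 3998 to 4588 in vector and of 3274 to 4173 in oeRNF112. The epithelial cadherin CDH1 was at or near 0 in all samples. The urothelial markers UPK2 and UPK3A had at most 7 and 1 counts, while GATA3 had 117 to 173.

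The sequences of SAA1 and SAA2 are shown because the copies can share reads. SAA1 and SAA2 are neighboring copies on chromosome 11 (GRCh38, SAA1 at 18266264 to 18269967 on the plus strand and SAA2 at 18238236 to 18248668 on the minus strand). Their coding sequences of 369 bases differed at 11 bases in the GENCODE 29 transcripts SAA1-201 and SAA2-201, an identity of 97%, and the longest stretch without a difference had 186 bases. Of the 270 windows of 100 bases in the SAA1 coding sequence, 87 were found letter for letter in SAA2, so a read could be assigned to one gene, the other or neither, depending on where it fell. Bases 204 to 323 of both coding sequences hold 10 of the differences and are printed with the differing bases in capitals.
SAA1: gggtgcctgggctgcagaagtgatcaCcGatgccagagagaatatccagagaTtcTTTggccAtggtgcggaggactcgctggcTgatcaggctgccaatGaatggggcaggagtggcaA
SAA2: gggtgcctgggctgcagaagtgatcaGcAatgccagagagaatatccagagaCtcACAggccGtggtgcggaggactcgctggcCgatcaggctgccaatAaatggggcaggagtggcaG

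LCN2 lies on chromosome 9 (GRCh38, 128149453 to 128153453, plus strand). It was the member with the largest called fold change, and the 188 bases before its RefSeq start, at chr9:128149265-128149452 on the plus strand of GRCh38.p14, are printed with a match to the NF-kB consensus and a match to the C/EBP motif TTNNGCAA in capitals, in that order.
LCN2: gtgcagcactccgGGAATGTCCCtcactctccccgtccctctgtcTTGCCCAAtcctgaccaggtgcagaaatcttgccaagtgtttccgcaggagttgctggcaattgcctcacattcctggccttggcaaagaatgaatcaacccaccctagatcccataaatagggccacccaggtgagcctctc

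RefSeq windows of 300 bases (250 before and 50 after a start) were matched for 5 of the 9 members, with 9 start sites in all: CFB, C1R, CD55, CD59 and LCN2. Both strands were searched, with overlaps between motifs allowed. The NF-kB consensus, the binding sequence of the main inflammatory transcription factor family, was found at 2 of these 9 start sites, in CFB and LCN2, and in 11.3% of all 35116 windows of the same length. The C/EBP motif TTNNGCAA was found at 4 (C1R, CD59 and LCN2; 10.5% of all windows), the STAT motif TTCNNNGAA at 4 (CFB, C1R and CD59; 7.66%) and the interferon response element, GAAA and GAAA with 2 bases of any kind between them, at 1 (CFB; 3.57%). The windows of some CD59 starts overlap. The STAT match TTCTCAGAA at -128 from 1 CD59 start and at -184 from another is the same site, counted at each. The start sites are therefore not independent, and the count of 4 overstates the STAT sites. The TATA box TATAAA was found at 1 (CFB; 11.5%). The E-box CACGTG, the motif that c-Myc can bind, was found at 0 of them and in 7.26% of all windows, and the CD55 window held none of these 6 motifs. These are matches of letters and do not show that a factor was bound.

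Of the 9 members, 8 had enough reads to be tested, and SAA2 did not. CD55 and LCN2 rose in oeRNF112, by 1.63 and 1.73 times, and 0 of the 8 fell by edgeR's test. At an unadjusted p under 0.05 there were 2 higher and 2 lower members, and DESeq2 called 2 higher and 1 lower. Among all genes tested, 18.1% differed between the groups, 9.97% higher and 8.14% lower, so 2 of 8 members (25%) is close to that background. Among all genes called, 55% were higher, and with library totals in place of TMM 75.4% were, as that scaling moved the median of all genes to 0.0962. Groups without overlap in CPM were found for 3 of the 8 (CD55 and LCN2 higher, SAA1 lower) and for 36.8% of all genes tested. The median log2 fold change was -0.02 over the 8 members and 0.00267 over all genes tested. With an exact two-sided permutation test of 3 against 3 samples, the smallest p possible is 0.1, so no member could pass 0.05 by that test.

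**Figure D1:**
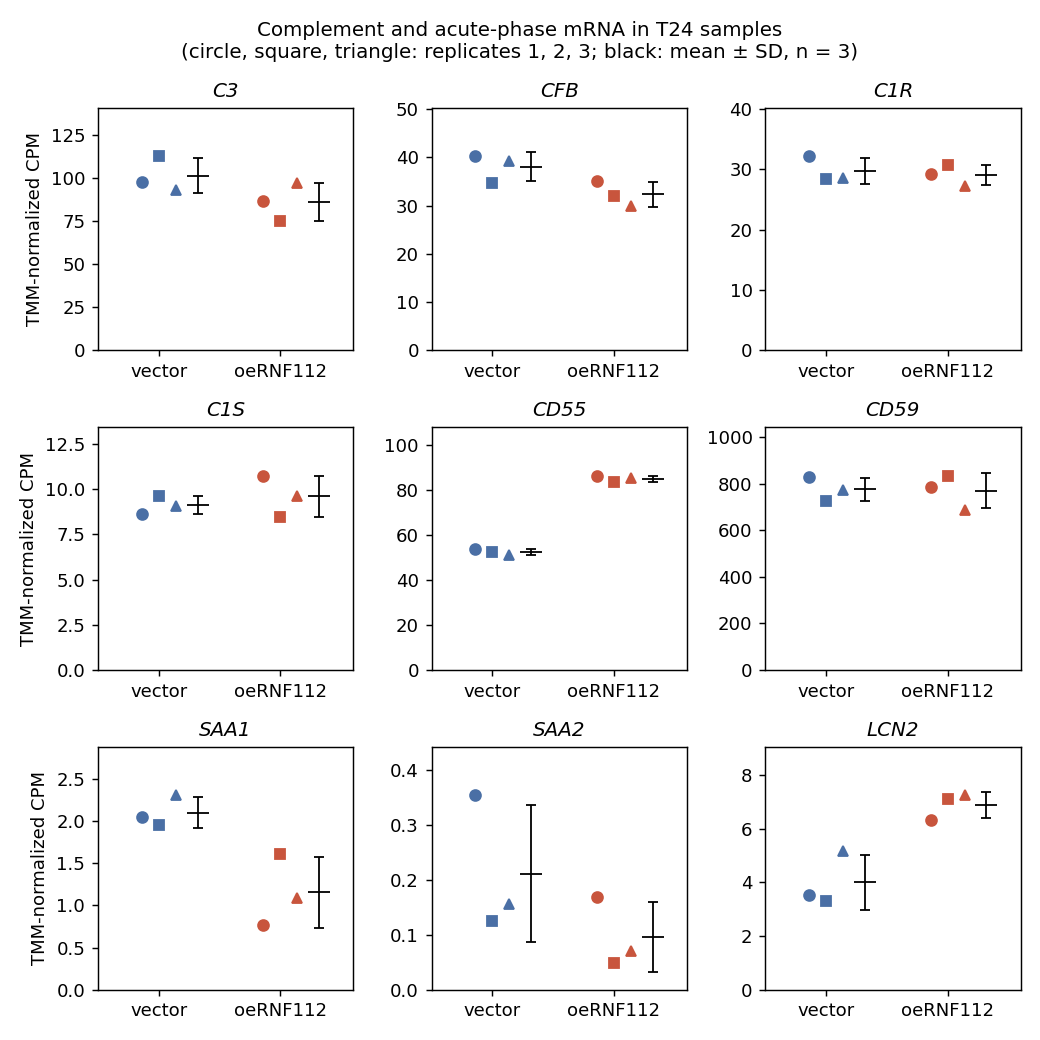
TMM-normalized CPM (y axis, from 0, own scale per gene) of the 9 members in the 3 vector (blue) and 3 oeRNF112 (red) samples, with mean ± SD in black. For CD55 and LCN2 all red points are above all blue points, for SAA1 all red points are below, and the groups overlap for the other 6.

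CD55, the decay-accelerating factor, was read 2125, 2094 and 1965 times in vector and 3579, 3434 and 3609 times in oeRNF112. The 3 samples of each group lay close together and the groups were far apart. Its CPM went from 52.3 ± 1.401 (SD, n = 3) to 85.0 ± 1.41 (SD, n = 3), a log2 fold change of 0.70 (standard error, SE, 0.0801, 95% interval 0.52 to 0.88, edgeR adjusted p = 0.00062). The call held in all 15 alternatives tried, with log2 fold changes from 0.68 to 0.79. CD55 lies on chromosome 1 at 207321678 to 207360966 (GRCh38, plus strand).

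CD59, which stops assembly of the membrane pore (chromosome 11, 33703010 to 33736479, GRCh38, minus strand), had 32675, 29040 and 29802 counts in vector and 32612, 34256 and 29149 in oeRNF112. The lowest CPM and the highest CPM were both in oeRNF112 samples, so the vector values lay within the oeRNF112 range. The mean CPM was 774.8 ± 50.1 (SD, n = 3) in vector and 769.5 ± 74.0 (SD, n = 3) in oeRNF112. The log2 fold change was -0.01, with a 95% interval of -0.23 to 0.21 (adjusted p = 0.958 from edgeR), and its sign turned with scaling by library totals (0.08).

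The 2 membrane inhibitors were also compared within each sample. Per gene length, on the RPKM scale, the ratio of CD59 to CD55 was 6.28, 5.66 and 6.19 in vector and 3.72, 4.07 and 3.30 in oeRNF112. The groups did not overlap, and the exact permutation p was 0.1, the smallest that 3 against 3 samples allow. With CD59 little changed, this ratio restates the rise of CD55 and is no separate evidence. CD59 was still the more abundant of both inhibitors in every sample. CD46, the third widely expressed membrane inhibitor and a cofactor in the cleavage of C3 fragments, had 8305, 9081 and 7214 counts in vector and 8688, 7667 and 8716 in oeRNF112, with overlapping groups and a log2 fold change of -0.05 (edgeR adjusted p = 0.741).

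**Figure D2:**
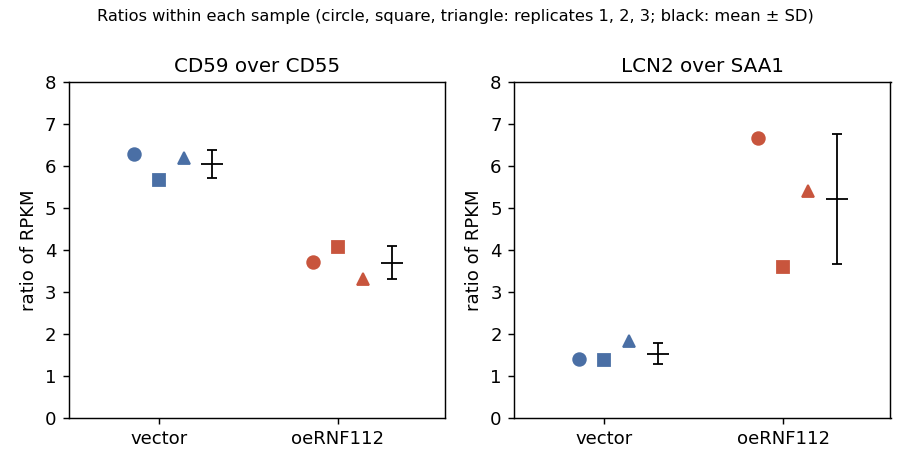
Ratio of RPKM values within each sample (y axis, from 0) for CD59 over CD55 and for LCN2 over SAA1, in vector (blue) and oeRNF112 (red), with mean ± SD (n = 3) in black. CD59 over CD55 runs from 5.66 to 6.28 in vector and from 3.30 to 4.07 in oeRNF112, and LCN2 over SAA1 runs from 1.37 to 1.82 in vector and from 3.59 to 6.67 in oeRNF112.

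LCN2 had 139, 132 and 200 counts in vector and 263, 292 and 307 counts in oeRNF112. All oeRNF112 samples were higher than all vector samples, and vector replicate 3 stood nearest to them. The CPM went from 4.0 ± 1.03 (SD, n = 3) to 6.90 ± 0.486 (SD, n = 3), with a log2 fold change of 0.79 (SE 0.184, 95% interval 0.378 to 1.197, edgeR adjusted p = 0.0172). The call was lost without vector replicate 1 (log2 fold change 0.72, adjusted p = 0.0767) and without oeRNF112 replicate 3 (0.75, adjusted p = 0.0501), and it held in the other 13 alternatives.

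SAA1 had 81, 78 and 89 counts in vector and 32, 66 and 46 counts in oeRNF112. Every oeRNF112 sample was lower than every vector sample, and oeRNF112 replicate 2 lay nearest to vector. The CPM was 2.10 ± 0.184 (SD, n = 3) in vector and 1.16 ± 0.421 (SD, n = 3) in oeRNF112. The log2 fold change of -0.86 (SE 0.277, 95% interval -1.48 to -0.25) missed the threshold (adjusted p = 0.0565 from edgeR). It was past the threshold in 8 of 16 alternatives, among them DESeq2 (-0.87, adjusted p = 0.0296) and the fit without oeRNF112 replicate 2 (-1.16, adjusted p = 0.0209).

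SAA2 had 14, 5 and 6 counts in vector and 7, 2 and 3 counts in oeRNF112. The groups overlapped, and the counts were below the filter on low counts. Without that filter its log2 fold change was -1.11 (SE 0.705 and edgeR adjusted p = 0.378). When the reads of SAA1 and SAA2 were summed because the copies can share reads, the log2 fold change of the sum was -0.89 (SE 0.247 and edgeR adjusted p = 0.0344).

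LCN2 and SAA1 were then compared within each sample. The ratio of LCN2 to SAA1 RPKM was 1.39, 1.37 and 1.82 in vector and 6.67, 3.59 and 5.41 in oeRNF112. The groups did not overlap (exact permutation p = 0.1, the smallest possible), LCN2 was the higher of both genes in every sample, and the oeRNF112 samples differed more among themselves. This lack of overlap was fixed by the values of each gene given above and is no separate evidence.

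C3, the component on which all 3 activation pathways meet, had 3862, 4499 and 3595 counts in vector and 3583, 3077 and 4109 counts in oeRNF112. In CPM, oeRNF112 replicate 3 lay between the vector samples and the other 2 oeRNF112 samples lay under all of them. The mean CPM was 101.1 ± 10.1 (SD, n = 3) and 86.1 ± 11.1 (SD, n = 3), and the log2 fold change of -0.23 (95% interval -0.49 to 0.02, adjusted p = 0.19 from edgeR) did not pass the test. Its direction was kept in all 15 alternatives (-0.33 to -0.13), none of them past the threshold. C3 lies on chromosome 19 at 6677704 to 6720650 (GRCh38, minus strand).

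CFB, the protease of the alternative pathway (chromosome 6, 31946095 to 31952084, GRCh38, plus strand), had 1593, 1391 and 1517 counts in vector and 1456, 1315 and 1268 in oeRNF112. One oeRNF112 sample, replicate 1, reached above vector replicate 2 in CPM. The mean CPM was 38.1 ± 2.93 (SD, n = 3) and 32.4 ± 2.61 (SD, n = 3), and the log2 fold change was -0.24 (95% interval -0.46 to -0.01, unadjusted p = 0.0423 and adjusted p = 0.136 from edgeR). Across the 15 alternatives it stayed between -0.30 and -0.13 and passed the adjusted threshold in none (adjusted p from 0.0659 to 0.395 by edgeR, DESeq2 or limma).

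C1R and C1S encode the paired proteases that start the classical pathway, and they lie close together on chromosome 12 (GRCh38, C1R at 7080219 to 7092445 on the minus strand and C1S at 7060718 to 7071032 on the plus strand). C1R had 1272, 1137 and 1104 counts in vector and 1209, 1260 and 1155 in oeRNF112. C1S had 342, 385 and 350 counts in vector and 445, 348 and 408 in oeRNF112. Both genes had overlapping groups. The log2 fold changes were -0.03 for C1R (95% interval -0.25 to 0.18, adjusted p = 0.836 from edgeR) and 0.08 for C1S (95% interval -0.21 to 0.36, adjusted p = 0.708 from edgeR). The sign of C1R turned with library totals (0.06), and that of C1S turned without oeRNF112 replicate 1 (-0.01). Per gene length, C1R stood at 3.31 to 4.17 times C1S in vector and 3.05 to 4.06 times in oeRNF112. Fibroblasts express these complement genes too, and the 8 fibroblast markers in the table had a summed CPM of 9.911 to 12.18 in vector and of 13.01 to 13.26 in oeRNF112, with 1 of 4 tested (PDGFRA) higher. Most of these sums came from COL1A1, with a CPM of 6.62 to 9.33 in vector and of 9.42 to 10.24 in oeRNF112. COL1A2 and DCN had at most 1 count in any sample and LUM at most 3. COL3A1 had 6 to 17 counts, THY1 3 to 14, PDGFRA 1 to 29 and PDGFRB 64 to 126. All samples are labelled as T24 cells, and whether any fibroblasts contributed to the C1R and C1S values was not tested.

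The levels per gene length spanned a wide range. In vector the RPKM was highest for CD59 (88.8 to 98.0), followed by C3 (17.0 to 21.2), CD55 (14.8 to 15.7) and CFB (13.9 to 15.6), C1R (10.5 to 11.8), LCN2 (3.98 to 6.05), SAA1 (2.90 to 3.32) and C1S (2.83 to 3.25), and SAA2 (0.0521 to 0.143). Neighbors in this order whose ranges overlapped were CD55 with CFB and SAA1 with C1S. In oeRNF112, CD55 stood at 25.7 to 27.1, above C3 at 14.5 to 19.5, and SAA1 at 1.2 to 2.45, below C1S at 2.93 to 3.80, and C3 and CFB overlapped. Of the 20991 genes with a vector mean above 0, 96.9% were at or below the level of CD59, 84.8% at or below that of C3 and 31% at or below that of SAA2.

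**Figure D3:**
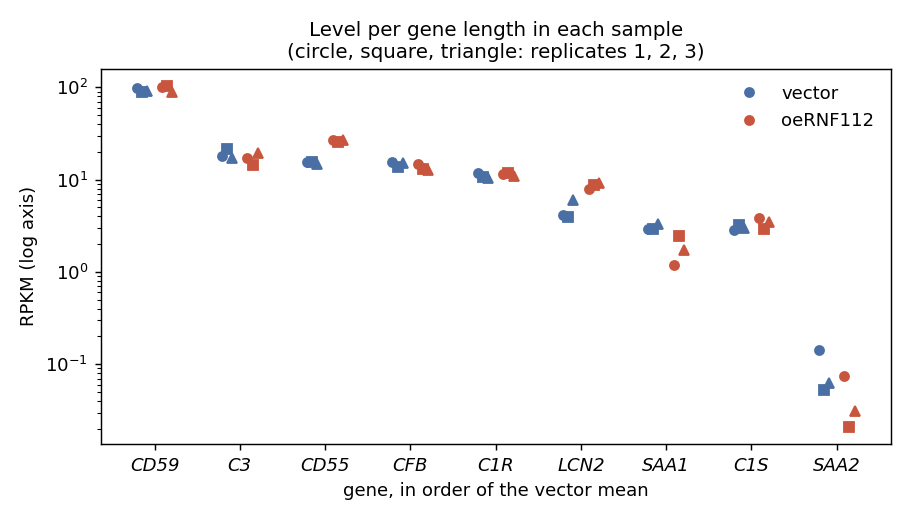
RPKM (y axis, log scale) of each member in each sample, with genes in order of their vector mean, vector in blue and oeRNF112 in red, and marker shape for the replicate. CD59 is highest and SAA2 lowest in both groups, and CD55 moves from among C3 and CFB to a place above them.

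Around these members, 98 genes of complement and the acute-phase response were taken as a wider set, of which 86 were in the table and 50 had enough reads to be tested. Of these 50, 14 rose and 5 fell in oeRNF112 (38% differing, beside 18.1% of all genes tested), and 31 did not pass. Their median log2 fold change was 0.22, beside 0.00267 for all genes tested. The lists were chosen with earlier results of these data known, so the share and the median describe them and were not tested. Of the called genes, 7 higher and 1 lower were in the list of genes that control the acute-phase response. These counts include the tested members.

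Among the activation genes, 0 of 6 tested genes of the classical and lectin pathways and 0 of 5 of the alternative pathway with C3 and C5 passed edgeR's test. Among all genes tested 18.1% differed, and lists of 5 or 6 genes can hold 0 called genes at that share. At an unadjusted p under 0.05 there were 0 in the first list and 2 lower in the second. DESeq2 called 0 in the first and 1 lower in the second. C5, the precursor of the chemoattractant C5a, had 236, 257 and 166 counts in vector and 164, 141 and 168 in oeRNF112, with groups that did not overlap in CPM and a log2 fold change of -0.56 (adjusted p = 0.0558 from edgeR). The C1q subunit genes C1QA, C1QB and C1QC had at most 3 counts in any sample, so the recognition part of C1 was at or near 0 while its proteases were read. C4A and C4B are near-identical copies with at most 25 counts, and reads could be split between them. Of the terminal pathway, 3 of 6 genes were in the table and none had enough reads to be tested.

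Of the soluble inhibitors, 12 of 13 genes were in the table and 5 were tested. SERPING1, the inhibitor of C1R and C1S, had 8, 3 and 10 counts in vector and 41, 28 and 30 counts in oeRNF112. Every oeRNF112 sample was higher, as for 18.9% of all genes tested. It rose with a log2 fold change of 2.14 (SE 0.436, edgeR adjusted p = 0.00968), from a low level, and the call held in all 13 alternatives.

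Of 5 tested receptor genes, 3 rose and 0 fell by edgeR, and at an unadjusted p under 0.05 there were 3 higher and 1 lower (DESeq2 3 higher and 0 lower). The 1 lower gene was C1QBP, with 5608 to 6728 counts in vector and 5171 to 5857 in oeRNF112. Its log2 fold change was -0.27 (unadjusted p = 0.0267 and adjusted p = 0.1 from edgeR). ITGB2 was not called (0.65, edgeR adjusted p = 0.226). The summed CPM of the list, mostly C1QBP, was 142.9 to 177.5 in vector and 128 to 147.4 in oeRNF112. C3AR1, the receptor of the C3a fragment, had 66, 50 and 52 counts in vector and 93, 97 and 118 in oeRNF112 (log2 fold change 0.79, adjusted p = 0.0287 from edgeR). C5AR1, the receptor of C5a, had 12, 9 and 4 counts in vector and 28, 19 and 43 in oeRNF112 (1.75, adjusted p = 0.0287). ITGAX, a subunit of complement receptor 4, had 9, 10 and 9 counts in vector and 37, 18 and 29 in oeRNF112 (1.49, adjusted p = 0.027). All oeRNF112 samples were higher for these 3 genes, as for 18.9% of all genes tested. The 3 of 5 called (60%) stand beside 18.1% of all genes tested, in a list of few genes. Their calls were lost without vector replicate 3 (edgeR adjusted p of 0.0713 for C3AR1, 0.0835 for C5AR1 and 0.07 for ITGAX), without oeRNF112 replicate 1 (0.0639, 0.0747 and 0.115) and without oeRNF112 replicate 3 (0.113, 0.118 and 0.0806). That of C3AR1 was also lost without vector replicate 2 (0.0569), and those of C5AR1 and ITGAX without vector replicate 1 (0.0579 and 0.0972). Leukocytes express these receptors too. The 9 leukocyte markers in the table had a summed CPM of 9.74 to 10.97 in vector and of 5.498 to 10.86 in oeRNF112, and of 4 tested, 1 (LAPTM5) was lower and 0 higher. In oeRNF112 replicate 1, LYZ had 97 counts, against 2 to 8 in the other 5 samples, and CSF1R had 15, against 0 to 4. The defining marker PTPRC had 37 to 54 counts in vector and 24 to 33 in oeRNF112. All samples are labelled as T24 cells, and whether any leukocytes contributed to the receptor values was not tested.

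Of the 22 positive acute-phase genes, most of which rise in the liver during inflammation, 17 were in the table. Of 8 tested, 2 were higher and 3 lower in oeRNF112 by edgeR (1 higher and 4 lower by DESeq2, and 2 higher and 5 lower at an unadjusted p under 0.05). Beside LCN2, the higher gene was HPX, which encodes the heme carrier hemopexin and had 2, 4 and 1 counts in vector and 15, 11 and 10 in oeRNF112 (log2 fold change 2.23, adjusted p = 0.0268 from edgeR, 0.0514 from DESeq2). The HPX call was lost without vector replicate 1 or 3 (edgeR adjusted p of 0.0994 and 0.0778) and without oeRNF112 replicate 1 or 3 (0.0994 and 0.0561), and at most 15 counts stand behind each value. CP, the copper-carrying ferroxidase ceruloplasmin, had 313, 371 and 250 counts in vector and 18, 7 and 9 in oeRNF112, the largest fall among these 8 genes. SERPINA3, an inhibitor of neutrophil cathepsin G, had 59, 53 and 50 counts in vector and 20, 11 and 18 in oeRNF112, a log2 fold change of -1.80 (SE 0.301 and edgeR adjusted p = 0.00375). SERPINA1, the inhibitor of neutrophil elastase, had 6157, 5378 and 5801 counts in vector and 4297, 4022 and 3520 in oeRNF112 and fell by 0.63 on the log2 scale (SE 0.105 and edgeR adjusted p = 0.00359). The calls of SERPINA1 and SERPINA3 held in all their alternatives, 15 and 14. The median log2 fold change of the 8 was -0.43, and 62.5% of them were called, beside 18.1% of all genes tested.

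**Figure D4:**
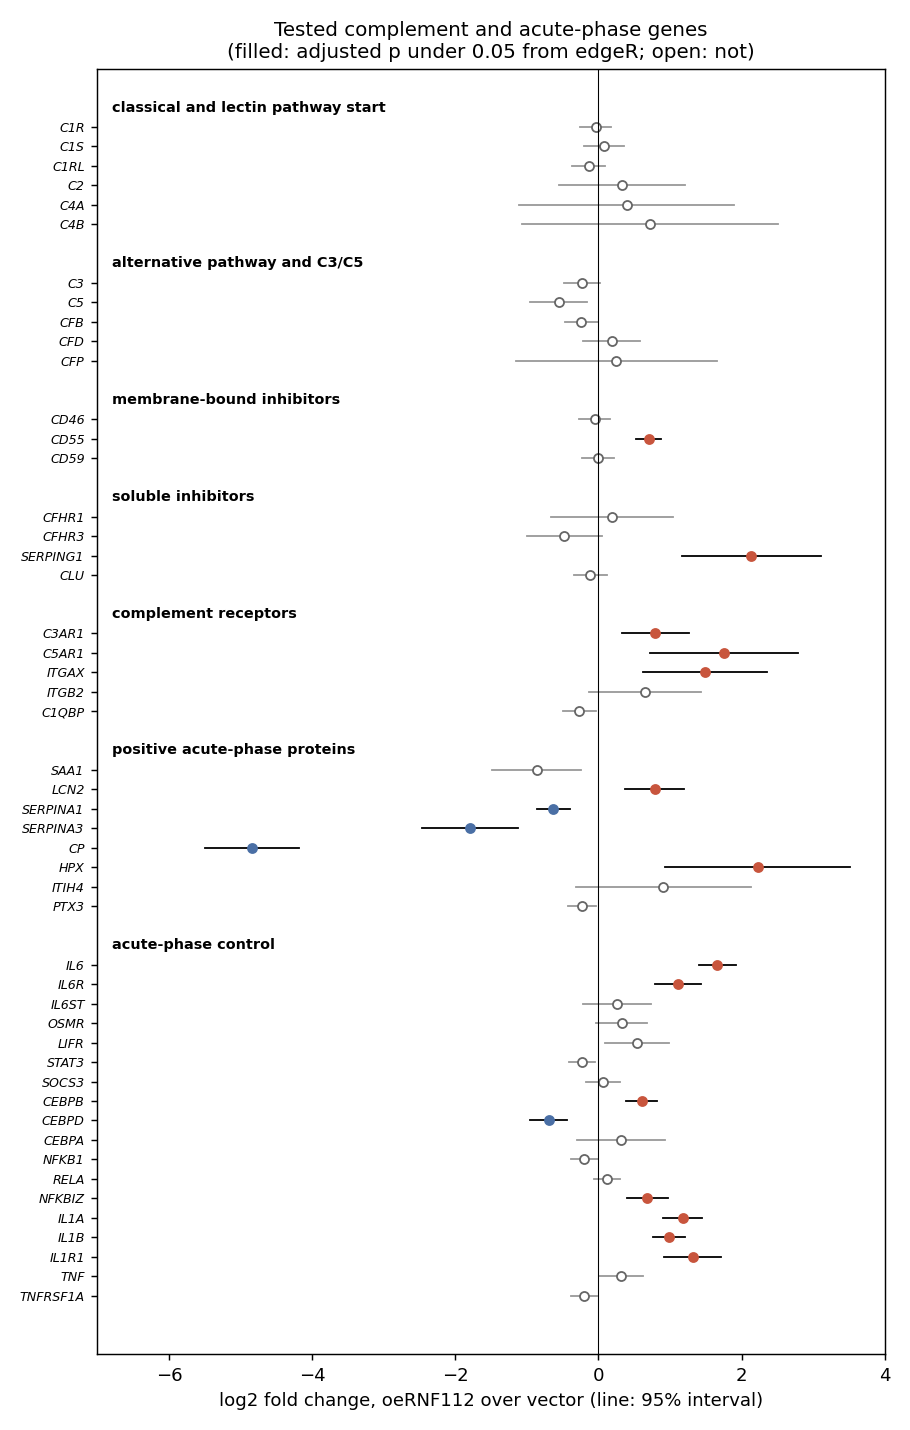
Log2 fold change of oeRNF112 over vector (x axis) with 95% interval for the tested genes of the wider set, 1 left out, grouped by role, red for called higher, blue for called lower and open for not called by edgeR's test. Among complement activation genes every point is open, CD55 is the called membrane inhibitor, and the acute-phase proteins fall on both sides of 0.

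The genes that control the acute-phase response, 19 in the table and 18 tested, had 7 higher and 1 lower in oeRNF112 by edgeR (8 higher and 1 lower by DESeq2, and 9 higher and 4 lower at an unadjusted p under 0.05), with a median log2 fold change of 0.32. IL6, the cytokine that drives acute-phase synthesis in liver, had 1645, 1377 and 1546 counts in vector and 4406, 5376 and 5510 in oeRNF112, and rose by 1.66 on the log2 scale (SE 0.115, edgeR adjusted p = 4.34e-05). IL6R, which encodes its receptor, had 151, 161 and 125 counts in vector and 312, 318 and 371 in oeRNF112, a log2 fold change of 1.12 (SE 0.144 and edgeR adjusted p = 0.00109). The interleukin 1 genes IL1A and IL1B rose, with log2 fold changes of 1.18 and 0.98 (edgeR adjusted p of 0.000402 and 0.000344). Their receptor gene IL1R1 had 127, 143 and 91 counts in vector and 332, 273 and 347 in oeRNF112, a log2 fold change of 1.32 (SE 0.179 and edgeR adjusted p = 0.00138). The 1 lower gene was CEBPD, a C/EBP transcription factor of the acute-phase response, with 648, 589 and 693 counts in vector and 424, 432 and 405 in oeRNF112 (log2 fold change -0.70, adjusted p = 0.00347 from edgeR). CEBPB, another C/EBP factor, had 4429, 3925 and 4474 counts in vector and 6529, 7410 and 6672 in oeRNF112 and was higher (log2 fold change 0.60, edgeR adjusted p = 0.00321). NFKBIZ, an atypical IkB protein that acts with NF-kB in the nucleus, was also higher (0.68, edgeR adjusted p = 0.00654). IL6ST, the signaling subunit of the IL6 receptor, and SOCS3, its feedback inhibitor, did not pass the test (log2 fold changes of 0.27 and 0.07, adjusted p of 0.415 and 0.696 from edgeR). Of the 18 tested, 44.4% were called, beside 18.1% of all genes tested.

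The gene whose log2 CPM followed each member most closely over the 6 samples was CCDC144NL-AS1 for CD55 (Pearson r = 0.998), SLC1A5 for LCN2 (0.994), PLLP for SAA1 (0.994), MSANTD4 for C3 (0.999), ASB9 for CFB (0.989), LOC105371764 for CD59 (0.987), JKAMP for C1R (0.981) and SLC25A34 for C1S (0.967). With 6 samples in 2 groups, 582 genes reached an r of 0.95 with CD55 and 4 did with C1R, so these are descriptions of likeness over shared libraries and carry no test.

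**Figure D5:**
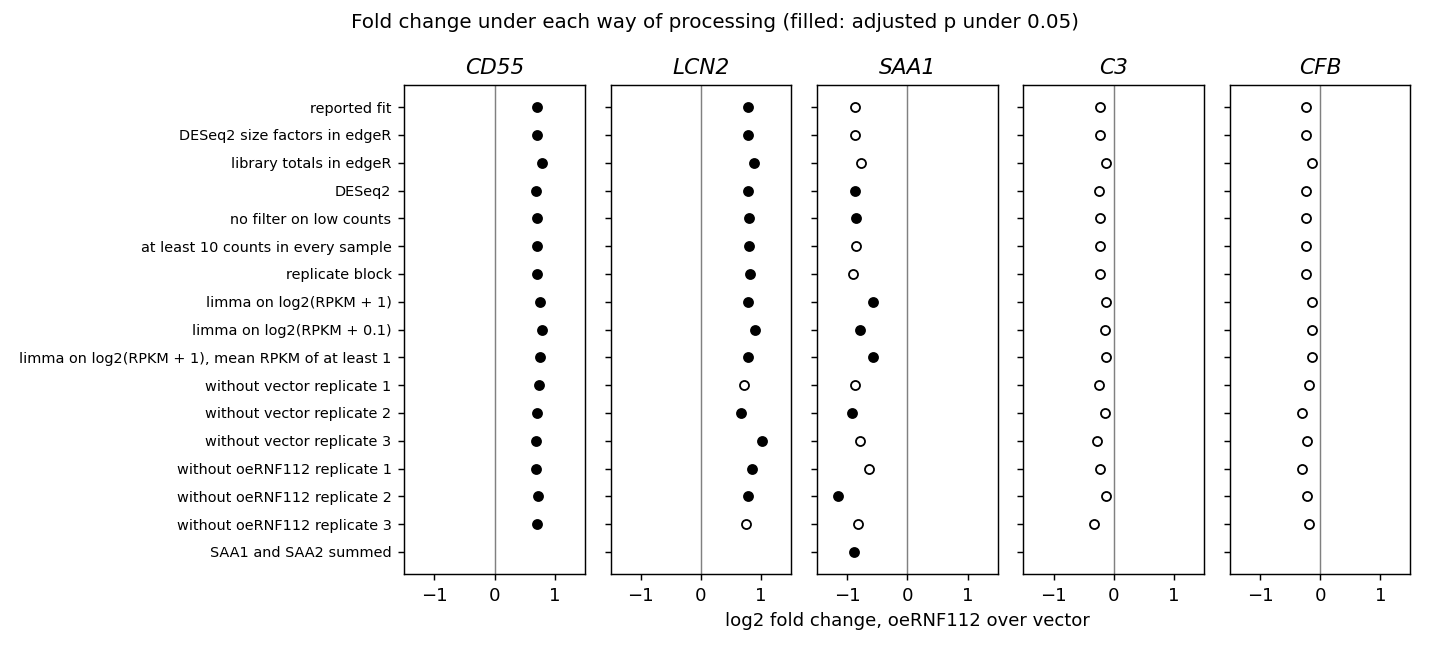
Log2 fold change of oeRNF112 over vector (x axis) for 5 members under each way of processing (rows), filled where the adjusted p was under 0.05. CD55 is filled in every row that has a point, LCN2 is open without vector replicate 1 and without oeRNF112 replicate 3, SAA1 is filled in 8 of its 16 alternatives, and C3 and CFB are open throughout.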

How the data were processed

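RNA-seq libraries of 3 vector and 3 oeRNF112 samples were analysed. The deposited tables hold raw read counts for each gene and the authors' RPKM, a count divided by gene length and library total. The submitters' processing notes name Trimmomatic 0.36, featureCounts and Subread 1.5.1 and the build GRCh38; the aligner, annotation release, strand setting and treatment of shared reads are not given in the sources used here. For 20637 of 20637 genes with reads in at least 2 samples, the deposited RPKM equalled the count scaled by the column total and 1 gene length within 0.1%. In GENCODE 29, C2 overlaps CFB, C1RL overlaps C1R, EMG1 overlaps C1S and GPR108 overlaps C3 on the same strand, so their counts may depend on the counting options.

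Counts were fitted in edgeR 4.0.16 (R 4.3.3) over the whole table by the quasi-likelihood test, after filterByExpr and TMM scaling. Standard errors were the log2 fold change over the square root of F. Alternatives were DESeq2 1.42.0, other scalings and filters, limma 3.58.1 on log2(RPKM + 1) and log2(RPKM + 0.1), a replicate block, each sample left out and summed gene copies. A value is a log2 fold change of oeRNF112 over vector. Named genes were RNF112, the members, at most 5 called genes per wider list and the most alike gene. CD46, C5, C1QBP, ITGB2, CEBPB, CEBPD, NFKBIZ, IL6ST, SOCS3 and the marker genes were named after their values were seen. The result of 1 gene of the wider set is not reported here. The members and lists were chosen with earlier results of these data known. No samples were copies of each other. Scripts were tested on simulated data.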

Additional observations from a re-analysis of the deposited data

How the results depend on the processing

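CD55 kept its call and direction in all 15 alternatives tried. LCN2 ranged from 0.66 to 1.02 when 1 sample was left out, and lost its call without vector replicate 1 and without oeRNF112 replicate 3, so that 1 member differed in these fits and 3 in the fits without vector replicate 2 or oeRNF112 replicate 2 (1 to 2 higher, 0 to 1 lower). SAA1 ranged from -1.16 to -0.64 in the same fits. It was past the threshold with DESeq2 (-0.87), without a filter on low counts (-0.86), with limma on log2(RPKM + 1) (-0.56, also at a mean RPKM of at least 1) or with a pseudocount of 0.1 (-0.79), and with SAA1 and SAA2 summed (-0.89); in each of these 1 member was lower. The sign of members near 0 turned: with library totals C1R was 0.059 and CD59 0.0832, with limma on RPKM C1R was 0.055, 0.0594 and 0.055 and CD59 0.0803, 0.081 and 0.0803 (pseudocounts of 1 and 0.1 and the mean RPKM filter). When 1 sample was left out, C1R ranged from -0.068 to 0.0386, CD59 from -0.059 to 0.0645 and C1S from -0.0102 to 0.173. The cause was not tested.

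Over all genes, 1061 to 3387 genes differed when 1 sample was left out (702 to 1841 higher, 359 to 1546 lower); the lowest count came from leaving out vector replicate 1 and the highest from leaving out vector replicate 2. Lower genes were 659 with library totals, which moved the median of all genes to 0.0962 and the share higher to 75.4% from 55%, 669 and 682 with limma on RPKM and 603 with its filter (73.6%, 73.8% and 70.5% of the called genes higher). In the wider set, 10 genes differed with that filter (7 higher, 3 lower), and 13 to 22 when 1 sample was left out (9 to 16 higher, 4 to 6 lower). The replicate block gave 876 genes (618 higher, 258 lower) and changed no member's call, while C3AR1, C5AR1, ITGAX and HPX lost theirs (edgeR adjusted p of 0.114, 0.0882, 0.0882 and 0.076). Samples sharing a replicate number deviated in opposite ways (r of -0.181, -0.539 and -0.454), and the number was not used as a pairing. At this depth SAA2, with at most 14 counts, could not be tested with the filter on low counts.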
